A study of Mus musculus with 6 samples.

Results

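Alcohol and retinol dehydrogenases were examined in whole liver of mice without profilin 2 (Pfn2-/-) and of wild-type mice. The set holds 10 genes of the 22180 tested: the alcohol dehydrogenase genes Adh4, Adh6-ps1, Adh1, Adh5 and Adh7, the short-chain dehydrogenase genes Dhrs9, Dhrs3 and Rdh11, and the aldehyde dehydrogenase genes Aldh1a1 and Aldh1a7. They were chosen by family around Dhrs9, Adh4 and Adh6-ps1, which had been picked from the difference between Pfn2-/- and wild type in these same arrays. The differences between genotypes of these 10 genes are therefore given as a description, and no significance is drawn from them. For each gene the brightest of the rows that carry its symbol alone was used.

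Both groups were C57BL/6 mice. The 3 Pfn2-/- livers, replicates 1, 2 and 3, came from animals of 9, 8.5 and 8 months, and the 3 wild-type livers, in the same order, from animals of 9, 8.5 and 8 months. Each liver gave 1 Affymetrix array. The labels state neither how the Pfn2 allele was made nor the sex of the animals. The dim row of Pfn2 itself (3.88, 3.81 and 3.93 in Pfn2-/- livers, against 4.02, 3.85 and 4.09 in wild-type livers) covers an unstated part of the transcript and does not check the genotype. All values are deposited log2 RMA values, where 1 unit is a doubling, and all differences are Pfn2-/- minus wild type. The arrays give no read depth, and their number limits the precision.

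Alcohol dehydrogenases of the zinc-dependent family use NAD to oxidise alcohols, among them ethanol and retinol (vitamin A), to aldehydes. Short-chain dehydrogenases act on retinol and steroids and, depending on the enzyme and its cofactor, run the step in either direction. Aldehyde dehydrogenases of the Aldh1a family then oxidise retinal to retinoic acid, the ligand of the retinoic acid receptors. The liver is the main site of ethanol oxidation and of vitamin A storage.

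Promoter windows of GRCm38.p6 (RefSeq, 250 bases before the annotated start to 50 bases after it) were at hand for 9 of the 10 genes, in 14 windows. Those of Adh4 and Dhrs9, which were higher in Pfn2-/- livers, are shown beside that of Adh1, whose groups overlapped. They lie at chr3:138415247-138415546, chr2:69380212-69380511 and chr3:138277335-138277634, all on the plus strand, and capitals mark the letters found in the motif search described after them.

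Adh4: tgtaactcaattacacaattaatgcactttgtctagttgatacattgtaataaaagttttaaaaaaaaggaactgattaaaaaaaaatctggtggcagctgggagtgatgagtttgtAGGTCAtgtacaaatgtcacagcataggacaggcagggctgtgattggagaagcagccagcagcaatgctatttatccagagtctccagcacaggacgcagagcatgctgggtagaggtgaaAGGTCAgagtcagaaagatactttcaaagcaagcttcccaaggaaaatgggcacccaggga

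Dhrs9: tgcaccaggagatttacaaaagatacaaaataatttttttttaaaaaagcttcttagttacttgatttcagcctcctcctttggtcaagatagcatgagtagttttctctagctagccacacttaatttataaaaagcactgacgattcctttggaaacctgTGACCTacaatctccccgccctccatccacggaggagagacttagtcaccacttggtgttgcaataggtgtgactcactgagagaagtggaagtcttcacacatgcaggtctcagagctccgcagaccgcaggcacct

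Adh1: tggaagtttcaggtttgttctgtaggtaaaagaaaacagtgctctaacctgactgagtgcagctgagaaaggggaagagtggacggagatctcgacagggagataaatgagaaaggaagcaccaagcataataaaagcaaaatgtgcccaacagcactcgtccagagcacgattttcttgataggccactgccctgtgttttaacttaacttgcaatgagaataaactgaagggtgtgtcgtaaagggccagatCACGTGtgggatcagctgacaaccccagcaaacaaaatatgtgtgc

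The letters AGGTCA, an element that retinoic acid receptors and other nuclear receptors can bind, were searched on both strands. They stand 2 times in the Adh4 window, beginning 133 and 11 bases before the annotated start, and 1 time in the Dhrs9 window, on the opposite strand and beginning 88 bases before the start. Of the 14 windows 3 hold AGGTCA (the third belongs to Rdh11, whose groups overlapped), and 16.3% of 32851 windows of all genes do. Dhrs3, also higher in Pfn2-/- livers, has no match in any of its windows, and Adh6-ps1 is the gene without a window. The E-box CACGTG is in 2 of the 14 windows, those of Adh1 and Rdh11, and in 7.15% of all windows. The palindromes TTCNNNGAA, known from STAT factors, and TTGCGCAA, known from C/EBP factors, are in none of the 14 windows, and in 8.3% and 0.183% of all windows. These matches describe letters, and binding was not measured.

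Adh4 and Adh6-ps1 were higher in all 3 Pfn2-/- livers than in any wild-type liver, while Adh1, Adh5 and Adh7 overlapped between the genotypes. Adh4 encodes the class II alcohol dehydrogenase, a liver enzyme that acts on retinol and other long alcohols. Its values were 10.50, 9.96 and 9.89 in Pfn2-/- livers, against 9.03, 9.42 and 9.30 in wild-type livers. Every Pfn2-/- liver lay above every wild-type liver, and Pfn2-/- replicate 1 was the highest. Adh4 averaged 10.12 ± 0.33 in Pfn2-/- and 9.25 ± 0.20 in wild type (SD, n = 3 each), a difference of 0.87 (SE 0.18, 95% confidence interval 0.46 to 1.27) or 1.82-fold. Since whole liver was measured, a change in the number of cells of a type and a change in RNA per cell cannot be told apart. This holds for Adh4 and for every gene that follows.

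Adh6-ps1 is annotated as a transcribed pseudogene of the family. It lay at 9.63, 9.41 and 9.38 in Pfn2-/- livers, against 8.11, 7.74 and 8.79 in wild-type livers. The Pfn2-/- livers lay close together and the wild-type livers spread over 1.05 units, with wild-type replicate 3 nearest to the Pfn2-/- livers. The means were 9.47 ± 0.14 in Pfn2-/- and 8.21 ± 0.53 in wild type (SD, n = 3 each), a difference of 1.26 (SE 0.23, interval 0.74 to 1.78) or 2.39-fold. Leaving out wild-type replicate 3 gave 1.55, and leaving out wild-type replicate 2 gave 1.02. Between animals of the same age the difference of Adh6-ps1 was 1.52, 1.67 and 0.59 at 9, 8.5 and 8 months, and that of Adh4 was 1.47, 0.54 and 0.59.

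Adh1, the class I enzyme that carries most ethanol oxidation in liver, had 9.50, 9.29 and 9.46 in Pfn2-/- livers, against 9.42, 9.45 and 9.73 in wild-type livers. The groups overlapped, with a difference of -0.12 (SE 0.13, interval -0.42 to 0.18). A second and much dimmer row of Adh1 differed by -0.19, and its groups did not overlap, at 3.96, 3.83 and 4.0 in Pfn2-/- livers and 4.22, 4.01 and 4.13 in wild-type livers. Adh5, the class III enzyme that removes formaldehyde and S-nitrosoglutathione, had 9.07, 8.96 and 9.11 in Pfn2-/- livers, against 9.01, 9.06 and 9.14 in wild-type livers. Its 6 values spanned little, and its interval of -0.28 to 0.24 was the narrowest of the 10 genes. Adh7, the class IV enzyme known from stomach epithelium, had 5.59, 5.50 and 5.04 in Pfn2-/- livers, against 5.55, 5.35 and 5.34 in wild-type livers, a difference of -0.04 (SE 0.16). Markers of stomach averaged 4.36 to 4.51 in Pfn2-/- livers and 4.42 to 4.62 in wild-type livers over 9 genes, near the array medians of 4.36 to 4.41. The intervals of Adh1, Adh5 and Adh7 ended at 0.18, 0.24 and 0.32, each below the lower bound of 0.46 for Adh4 and 0.74 for Adh6-ps1. This comparison of intervals is a description, as Adh4 and Adh6-ps1 had been picked for their differences, and close relatives in this family can share probe signal.

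**Figure D1:**
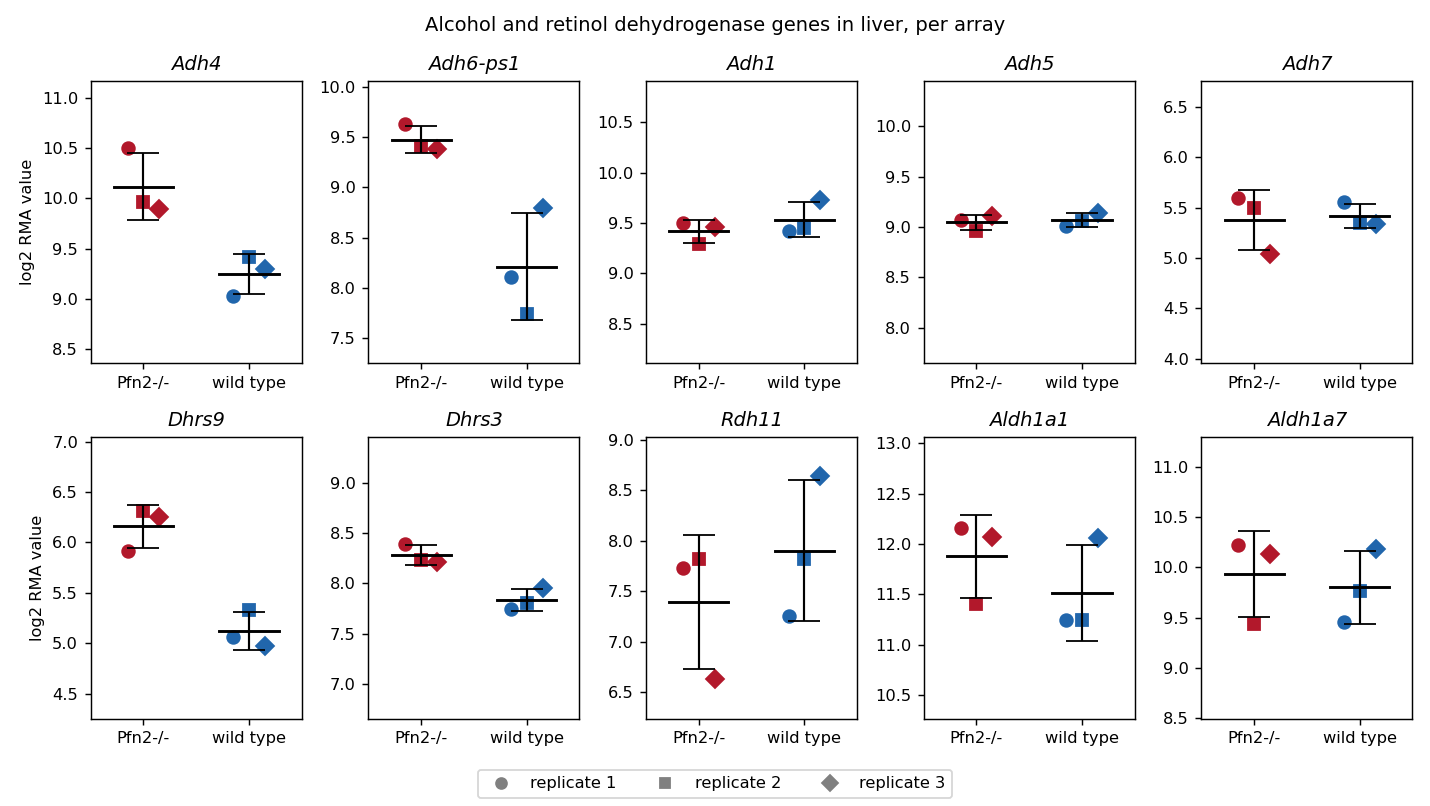
Log2 RMA values of the 10 genes per array, Pfn2-/- (red) left of wild type (blue), with the replicate number as marker shape, a thick line at the mean and bars of 1 SD (n = 3 each). Every panel spans the same height but has its own level, and the groups of Adh4, Adh6-ps1, Dhrs9 and Dhrs3 do not overlap.

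The 5 alcohol dehydrogenase genes of the set lie in 1 cluster on chromosome 3, in the order Adh7, Adh1, Adh6-ps1, Adh4, Adh5. The genes that were higher in Pfn2-/- livers are direct neighbours among the measured genes. Adh6b, next to Adh6-ps1 on one side, differed by -0.16 (SE 0.21), and Adh6a by -0.06 (SE 0.12). Adh6b and Adh6a were dim, at 2.89 to 3.68 and 3.74 to 3.86 in Pfn2-/- livers and at 3.37 to 3.70 and 3.84 to 3.94 in wild-type livers. Adh5, next to Adh4 on the other side, differed by -0.02 (SE 0.12). The unnamed transcript 0610031O16Rik, between Adh7 and Adh1, had 8.62, 8.39 and 7.97 in Pfn2-/- livers, against 7.88, 7.74 and 8.02 in wild-type livers. Its groups overlapped, and its difference was 0.45 (SE 0.17, interval 0.06 to 0.83).

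Outside the cluster, the nearest 3 measured genes on the side of Adh7 were 4930579F01Rik, Trmt10a and Mttp, with differences of 0.22 (SE 0.15), -0.28 (SE 0.15) and -0.07 (SE 0.16). On the side of Adh5 they were Metap1, Eif4e and Mir1956, with differences of 0.11 (SE 0.16), 0 (SE 0.13) and 0.03 (SE 0.13). None of these 6 flanking genes differed by more than 2 of its standard errors. Pfn2 lies on the same chromosome, with 712 measured genes between it and the cluster.

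**Figure D2:**
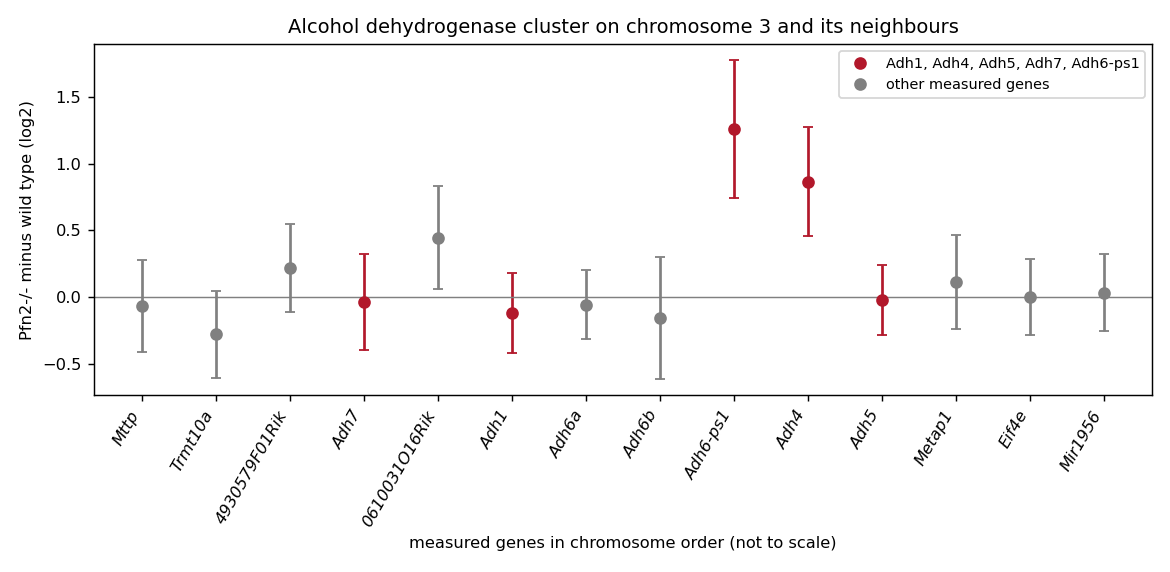
Difference between Pfn2-/- and wild type on the log2 scale for the measured genes of the alcohol dehydrogenase cluster and 3 neighbours on each side, in chromosome order and not to scale. Bars are 95% confidence intervals of the limma fit (3 arrays per group), and the points of Adh6-ps1 (1.26) and Adh4 (0.87) stand above those of the other genes.

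Dhrs9 and Dhrs3 were higher in all 3 Pfn2-/- livers than in any wild-type liver, and Rdh11 varied widely within both genotypes. Dhrs9 encodes a short-chain dehydrogenase that oxidises retinol and 3-alpha-hydroxysteroids, known from the human and rat enzymes. Its values were 5.92, 6.31 and 6.25 in Pfn2-/- livers, against 5.06, 5.33 and 4.97 in wild-type livers. Every Pfn2-/- liver lay above every wild-type liver, and the spread was alike in both groups. Dhrs9 averaged 6.16 ± 0.21 in Pfn2-/- and 5.12 ± 0.19 in wild type (SD, n = 3 each), a difference of 1.04 (SE 0.15, interval 0.70 to 1.38) or 2.06-fold. Between animals of the same age it was 0.86, 0.98 and 1.28 at 9, 8.5 and 8 months. Leaving out 1 array at a time gave 0.97 to 1.16.

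Dhrs3 encodes a retinal reductase, which returns retinal to retinol, and is known as a gene that retinoic acid induces. It had 8.39, 8.23 and 8.21 in Pfn2-/- livers, against 7.74, 7.80 and 7.95 in wild-type livers. The groups did not overlap and each was tight, with means of 8.28 ± 0.10 in Pfn2-/- and 7.83 ± 0.11 in wild type (SD, n = 3 each). The difference was 0.45 (SE 0.12, interval 0.17 to 0.72) or 1.36-fold, and 0.39 to 0.51 with 1 array left out.

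Rdh11, another reductase of retinal, had 7.73, 7.82 and 6.63 in Pfn2-/- livers, against 7.25, 7.82 and 8.64 in wild-type livers. Its lowest value was Pfn2-/- replicate 3 and its highest wild-type replicate 3, and the other 4 livers lay between 7.25 and 7.82. The difference of -0.51 (SE 0.37, interval -1.35 to 0.33) rested on these 2 livers. Without both of them it was 0.24 (SE 0.20), and by age it was 0.48, 0 and -2.01 at 9, 8.5 and 8 months.

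Of the 3 short-chain dehydrogenases, the intervals of Dhrs9 and Dhrs3 overlapped slightly, at 0.70 to 1.38 for Dhrs9 and 0.17 to 0.72 for Dhrs3. That of Rdh11 reached from -1.35 to 0.33 and did not meet that of Dhrs9. As Dhrs9 had been picked for its difference, this comparison of intervals is a description. The SD within groups, pooled over genotypes, was 0.10 for Dhrs3, 0.20 for Dhrs9 and 0.68 for Rdh11, where the median over all genes was 0.17.

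Aldh1a1 and Aldh1a7 overlapped between the genotypes. Aldh1a1 encodes the cytosolic enzyme that oxidises retinal to retinoic acid, and Aldh1a7 its close paralog in rodents. Aldh1a1 had 12.16, 11.40 and 12.07 in Pfn2-/- livers, against 11.24, 11.24 and 12.06 in wild-type livers, a difference of 0.36 (SE 0.26, interval -0.21 to 0.94). Pfn2-/- replicates 1 and 3 and wild-type replicate 3 formed the high livers, and without wild-type replicate 3 the difference was 0.64. Aldh1a7 had 10.22, 9.44 and 10.13 in Pfn2-/- livers, against 9.46, 9.76 and 10.18 in wild-type livers, a difference of 0.13 (SE 0.23, interval -0.40 to 0.66). The same 3 livers were its highest, and its lowest were Pfn2-/- replicate 2 and wild-type replicate 1. With 1 array left out its difference ran from -0.04 to 0.38, so its sign was not settled.

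The promoter windows of these paralogs share 65 bases without a difference, shown as a measure of how close these copies are. The stretch lies at chr19:20601874-20601938 on the plus strand for Aldh1a1 and at chr19:20727586-20727650 on the minus strand for Aldh1a7. It begins 94 bases before the start in each gene, and of the last 100 bases of the windows 95 are identical.

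Aldh1a1 and Aldh1a7: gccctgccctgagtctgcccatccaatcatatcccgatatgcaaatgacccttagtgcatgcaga

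**Figure D3:**
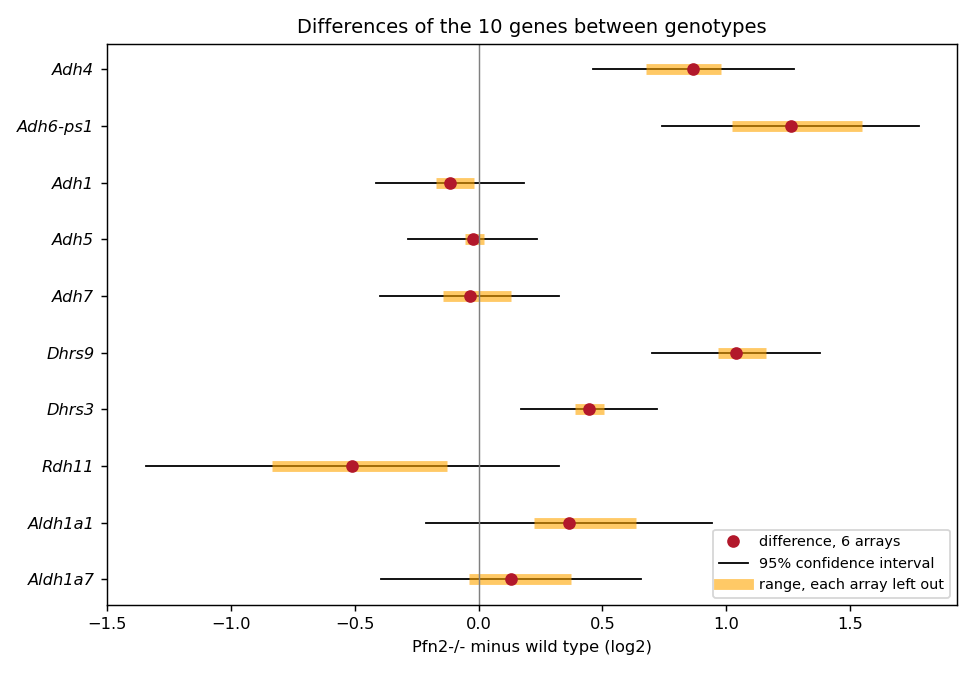
Differences between Pfn2-/- and wild type on the log2 scale for the 10 genes, with 95% confidence intervals of the limma fit (thin lines, 3 arrays per group) and the range over 6 fits that each leave out 1 array (orange). Adh6-ps1, Dhrs9 and Adh4 stand highest at 1.26, 1.04 and 0.87, and the range of Rdh11 is the widest.

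Over the 10 genes the differences ran from -0.51 for Rdh11 to 1.26 for Adh6-ps1, with a median of 0.25, beside a median of 0 over all genes. The groups of 4 genes (Adh4, Adh6-ps1, Dhrs9 and Dhrs3) did not overlap, with Pfn2-/- higher, beside 5.09% of all genes, and 0 were lower throughout, beside 4.76%. The genes had been proposed from this comparison, so nothing is read from these counts. Among all 22180 genes, these 10 included, 0 passed a Benjamini-Hochberg adjusted p of 0.05 in limma (0%). Ordered from the highest difference among 22180 genes, Adh6-ps1 was at place 10, Dhrs9 at 19, Adh4 at 28 and Dhrs3 at 273, while Rdh11 was at 21975.

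Other genes of retinoid and alcohol metabolism, 116 measured of 129 listed, lay on both sides of 0. With limma 0 passed the adjusted threshold (smallest adjusted p = 0.875). At an unadjusted p under 0.05 there were 6, beside 5.29% of all genes. Of these 3 were higher, beside 2.67% of all genes, and 3 lower, beside 2.62%. Their median difference was -0.03, with 50 above 0, 65 below and 1 at 0.

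Among 29 other short-chain retinol and retinal dehydrogenases, 3 were higher at an unadjusted p under 0.05, beside 2.67% of all genes. In this list 1 was lower, beside 2.62%, and the median was -0.02. Sdr9c7, a relative of the retinol dehydrogenases, had 7.84, 7.43 and 7.61 in Pfn2-/- livers, against 6.83, 6.15 and 7.43 in wild-type livers. The highest wild-type liver of Sdr9c7 equalled the lowest Pfn2-/- liver, and its difference was 0.82 (SE 0.27). Hsd17b11, an enzyme found on lipid droplets, differed by 0.28 (SE 0.12) and Dhrs13 by 0.29 (SE 0.12), both with groups that did not overlap. Rdh16f2, of the Rdh16 retinol dehydrogenase family, differed by -0.40 (SE 0.16), at 8.14 to 8.29 in Pfn2-/- livers and 8.29 to 8.86 in wild-type livers. Adjusted p of these 4 genes was 0.875 to 0.92 in limma. Without Pfn2-/- replicate 1 none of this list was at an unadjusted p under 0.05.

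Among 9 other zinc alcohol dehydrogenase relatives 0 were at an unadjusted p under 0.05, beside 5.29% of all genes. The median was -0.13. Vat1, a membrane protein of this family, differed by -0.31 (SE 0.18), Zadh2 by -0.21 (SE 0.16), Mecr, of mitochondrial fatty acid synthesis, by -0.13 (SE 0.12) and Ptgr1, a prostaglandin reductase, by -0.16 (SE 0.17). Among 19 other aldehyde dehydrogenases the median was -0.11, and 0 were higher at an unadjusted p under 0.05, beside 2.67% of all genes. At that threshold 1 was lower, beside 2.62%. That gene was Aldh3a1, dim at 3.68 to 4.04 in Pfn2-/- livers and 4.14 to 4.39 in wild-type livers, with a difference of -0.41 (SE 0.14, adjusted p = 0.895 in limma). Aldh1l1 and Aldh1l2, of folate metabolism, differed by -0.25 (SE 0.17) and -0.21 (SE 0.14), and Aldh5a1, which oxidises succinate semialdehyde, by 0.18 (SE 0.14).

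Among 30 genes of retinoid transport, storage and breakdown 1 was lower at an unadjusted p under 0.05, beside 2.62% of all genes. In that list 0 were higher, beside 2.67%, and the median was -0.003. Dgat1, which makes triglyceride and can esterify retinol, had 5.69, 5.58 and 5.80 in Pfn2-/- livers, against 6.07, 6.08 and 5.98 in wild-type livers. Its groups did not overlap, and the difference was -0.35 (SE 0.12, adjusted p = 0.895 in limma). Pnpla3, a lipid droplet lipase known in human cells to act on retinyl esters, differed by -0.82 (SE 0.44), and wild-type replicates 1, 2 and 3 lay at 4.26, 4.47 and 6.28. Bco2, which cleaves carotenoids, differed by 0.40 (SE 0.22), and Cyp26c1, which breaks down retinoic acid, by -0.23 (SE 0.13).

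Among 16 retinoic acid receptors, cofactors and targets 0 were at an unadjusted p under 0.05, beside 5.29% of all genes. The median was -0.01. Rarres1, known as a retinoid responder in human cells, had 8.41, 5.92 and 8.26 in Pfn2-/- livers, against 6.51, 5.84 and 7.59 in wild-type livers. Its groups overlapped, with Pfn2-/- replicates 1 and 3 and wild-type replicate 3 as the high livers, as for Aldh1a1 (difference 0.88, SE 0.62). The receptor genes Rara and Rarg differed by 0.14 (SE 0.14) and -0.22 (SE 0.18), and Stra8, known as a retinoic acid target in germ cells, by -0.15 (SE 0.12). Among 13 other genes of ethanol and acetate metabolism 0 were at an unadjusted p under 0.05, again beside 5.29%, with a median of -0.10. Acss2, which activates acetate, had 8.33, 7.93 and 7.51 in Pfn2-/- livers, against 7.49, 8.24 and 10.06 in wild-type livers, so that wild-type replicate 3 set its difference of -0.67 (SE 0.52). Fmo5, Nnt and Fbp1 differed by -0.33 (SE 0.18), -0.25 (SE 0.17) and -0.17 (SE 0.13).

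**Figure D4:**
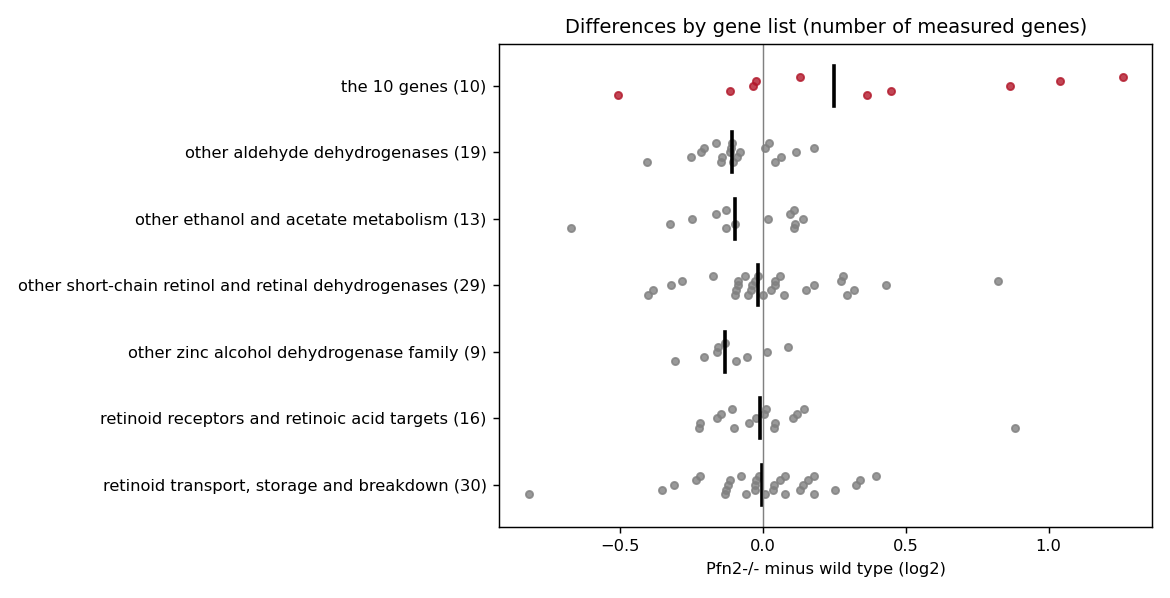
Differences between Pfn2-/- and wild type on the log2 scale for the 10 genes (red) and for the measured genes of 6 related lists (grey), each point 1 gene and each black line the median of its list. The medians of the 6 lists lie between -0.13 and 0, and that of the 10 genes at 0.25.

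The genes whose values over the 6 livers were most like those of Adh4, Adh6-ps1 and Dhrs9 were found by the root mean square difference of log2 values, each gene centred on its own mean. Nearest to Adh6-ps1 were Gm4450 (0.23), Sdr9c7 (0.25) and 1810058I24Rik (0.28), of which Sdr9c7 is one of the listed retinol dehydrogenase relatives. Nearest to Adh4 were Spata22 (0.18), Uchl3 (0.18) and Themis (0.19). Nearest to Dhrs9 were Osgin1 (0.21), Vmn1r86 (0.24) and Slc22a30 (0.24). Vmn1r86 was dim, at 2.44 to 2.73 in Pfn2-/- livers and 1.87 to 1.99 in wild-type livers, below the lower quartiles of the arrays (3.51 to 3.57). Uchl3 lay at 3.97 to 4.55 and Themis at 4.46 to 5.17 in Pfn2-/- livers, where the array medians were 4.36 to 4.41. In wild-type livers Uchl3 was dim, at 3.48 to 3.60 and so near the lower quartiles, and Themis lay at 4.11 to 4.27. Among the other genes of the set, the nearest to Adh4 was Dhrs3 (0.27), to Dhrs9 it was Adh4 (0.34) and to Adh6-ps1 it was Adh4 (0.41). These distances are a description over 6 livers, chosen among 22180 genes.

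**Figure D5:**
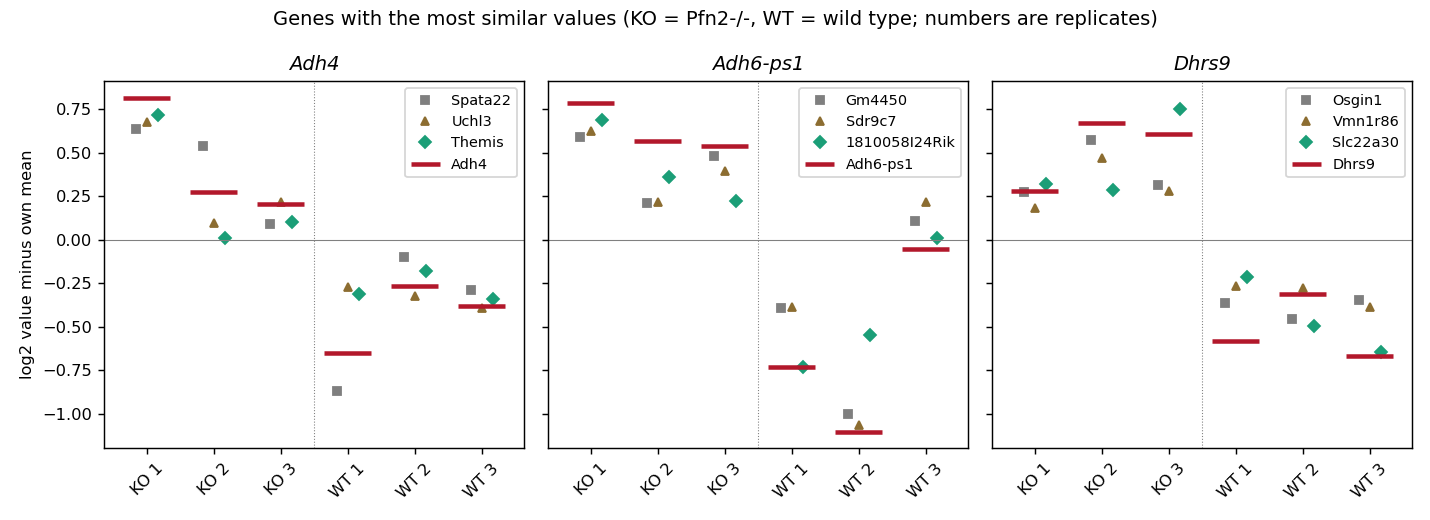
Log2 values minus each gene's own mean in the 6 livers, Pfn2-/- left of wild type, for Adh4, Adh6-ps1 and Dhrs9 (red bars) and the 3 genes nearest to each (symbols). Adh6-ps1, Gm4450 and Sdr9c7 share a lowest value in wild-type replicate 2.

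The livers also differed in other respects. In lists of sample state, each gene centred on its own mean, 9 genes of fatty acid synthesis stood at -0.41 to -0.09 in Pfn2-/- livers and at -0.32, -0.20 and 1.37 in wild-type replicates 1, 2 and 3. Rdh11 and Acss2, which are not on that list, were also highest in wild-type replicate 3, and the part of its state in their differences was not tested. Pfn2-/- replicates 1 and 3 stood at 0.66 and 1.21 for 8 acute-phase genes (-0.47 in Pfn2-/- replicate 2, -0.52 to -0.41 in wild-type livers), and Pfn2-/- replicate 3 at 0.75 for 8 heat shock genes (-0.21 to 0.02 in the other 5 livers). A list of 14 genes with male-biased liver expression, as known from mice, had 14 of 14 differences above 0, with a median of 0.74. At an unadjusted p under 0.05 in limma 12 were higher, beside 2.67% of all genes, and 0 lower, beside 2.62%. This list was chosen with earlier results of these data known, so nothing is read from these counts. The list stood at 0.22 to 0.72 in Pfn2-/- livers and -0.88 to -0.22 in wild-type livers. For this list, as for Adh4, Adh6-ps1, Dhrs9 and Dhrs3, the groups did not overlap, and its part in those differences was not tested. Without replicate 3 of both genotypes the differences were 1.00 for Adh4, 1.59 for Adh6-ps1, 0.92 for Dhrs9 and 0.54 for Dhrs3.

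Markers of hepatocytes, which hold most alcohol dehydrogenase, and of stellate cells, which store vitamin A, overlapped between the genotypes as lists. The mean level of 11 hepatocyte markers was 10.94 to 11.03 in Pfn2-/- livers and 10.98 to 11.16 in wild-type livers, with 3 differences above 0 and 8 below. That of 12 stellate cell markers was 6.92 to 7.02 in Pfn2-/- livers and 6.92 to 7.16 in wild-type livers, with 3 differences above 0 and 9 below. Markers of endothelial cells and Kupffer cells had 8 of 10 and 9 of 10 differences below 0, at mean levels of 7.81 to 8.02 and 7.34 to 7.44 in Pfn2-/- livers and 7.86 to 8.23 and 7.20 to 7.89 in wild-type livers. Cholangiocyte markers averaged 4.38 to 4.56 in Pfn2-/- livers and 4.28 to 4.35 in wild-type livers over 7 genes, without overlap and near the array medians, and their part in the differences of Adh4, Adh6-ps1, Dhrs9 and Dhrs3 was not tested.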

How the data were processed

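Total RNA of 6 mouse livers was measured on Affymetrix arrays labelled with the GeneChip WT PLUS kit, per the labels' protocols. The authors deposited log2 expression values, and RMA and limma are named per the submitters' processing notes, without versions. RMA normalizes arrays to each other and compresses the fold of dim rows. The sources used here do not give probe set level or probe positions.

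Of 34390 rows, 23521 carried exactly 1 symbol, 1814 several and 9055 were not listed in the platform annotation. The brightest row per gene was kept, which left 22180 genes, and 1082 genes had several rows. Pfn2-/- and wild type (3 arrays each) were compared by limma (version 3.58.1, R 4.3.3: lmFit, eBayes, genotype as the sole term, two-sided, Benjamini-Hochberg over all genes, prior degrees of freedom 5.71). The fit was tested on simulated data.

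The genes and lists were chosen with earlier results of these data known. In each of the 6 related lists the 4 genes of smallest p were named. Of 273 list symbols 248 were matched. Marker and sample state lists without a count above held these measured genes at an unadjusted p under 0.05, beside 5.29% of all genes. They were 0 of 9 for lymphocyte, 1 of 7 for pancreas, 1 of 6 for adipocyte and 0 of 3 for red blood cell. They were 1 of 12 for clock, 3 of 8 for acute phase and 1 of 8 for heat shock. For fatty acid synthesis, cholangiocyte and hepatocyte they were 2 of 9, 2 of 7 and 1 of 11. For endothelial cell, stellate cell, Kupffer cell and stomach they were 1 of 10, 0 of 12, 0 of 10 and 0 of 9. The acute-phase and cholangiocyte genes so counted were higher in Pfn2-/- livers, and those of fatty acid synthesis lower. A planned comparison of protein sequences was not run, as no protein table was used here. Promoter windows came from RefSeq (GRCm38.p6), as did the order of genes.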

Additional observations from a re-analysis of the deposited data

How the results depend on the processing

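Other normalizations (median centring, repeated quantile, cyclic loess), the mean of all rows of a gene and array weights moved no difference of the 10 genes by more than its SD within groups. Filters on dim genes and variance models leave a difference as it is. With 3 arrays per group, leaving out 1 array cannot move a difference by as much as that SD. No stability is therefore read from these settings. The difference of Rdh11 moved by more than its SD without replicate 3 of both genotypes, a setting chosen after seeing the data, to 0.24. With 1 array left out the differences ran from 0.68 to 0.98 for Adh4, 1.02 to 1.55 for Adh6-ps1, 0.97 to 1.16 for Dhrs9, 0.39 to 0.51 for Dhrs3, -0.17 to -0.02 for Adh1, -0.06 to 0.02 for Adh5, -0.14 to 0.13 for Adh7, 0.22 to 0.64 for Aldh1a1, -0.04 to 0.38 for Aldh1a7 and -0.84 to -0.13 for Rdh11. Thus the signs of Adh5, Adh7 and Aldh1a7 turned.

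Over all genes, 0 passed the adjusted threshold (1174 at an unadjusted p under 0.05), and 2 did with array weights, 7 with the replicate block, 0 to 6 with 1 array left out and 24 without replicate 3 of both genotypes. At an unadjusted p under 0.05 there were 682 with the filter at the median, which tests fewer genes, 892 (without wild-type replicate 2) to 1560 (without wild-type replicate 3) with 1 array left out, and 1777 without replicate 3 of both genotypes. Genes whose groups did not overlap numbered 1185 with that filter, 3884 to 4921 with 1 array left out and 8072 without replicate 3 of both genotypes, since fewer arrays overlap less often. Among the 116 related genes 0 passed the adjusted threshold in any setting, and those at an unadjusted p under 0.05 numbered 2 (without Pfn2-/- replicate 1) to 11 (without wild-type replicate 1), against 6 with all arrays. By list, with 1 array left out, these ran from 0 to 3 (4 with all arrays) for short-chain dehydrogenases, 0 to 1 for zinc alcohol dehydrogenases, 0 to 2 for aldehyde dehydrogenases, 1 to 4 for retinoid transport, 0 to 1 for receptors and 0 to 1 for ethanol metabolism. The cause of these shifts was not tested. The replicate number was shared by animals of the same age. Correlations of deviations across genes were -0.08, 0.16 and 0.02 for numbers 1, 2 and 3, and -0.17 to 0.18 between unequal numbers. With 3 arrays per group these values cannot decide whether the numbers pair the samples. In this balanced design the block cannot move a difference. It moved errors (the SE of Aldh1a1 was 0.19 with the block and 0.26 without) and the counts at an unadjusted p under 0.05, to 2 for short-chain dehydrogenases (4 without the block), 3 for retinoid transport (1 without) and 1 for receptors (0 without). The number of arrays and the compression of dim rows limit what could be detected.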
